A study of Homo sapiens with 6 samples.

Results

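A set of 9 genes of the osteoblast and of bone remodelling was followed in U2OS, a human cell line derived from an osteosarcoma, in which siRNA was directed at H3.X and H3.Y, variants of histone H3. The set held RUNX2, SP7, DLX5, ALPL, SPP1, IBSP, TNFRSF11B, TNFSF11 and DKK1, chosen by symbol among array probe sets that carry exactly 1 gene symbol. All 9 genes were found, each with 1 probe set, out of 18417 genes with such a probe set and 33297 probe sets in all. Cells in DMEM with fetal calf serum received siRNA in 2 transfections, and RNA came from cells harvested on day 4. The 3 groups were luciferase siRNA, which has no target in human cells and served as control, H3.Y siRNA, and siRNA against H3.X and H3.Y together, called the combined knockdown. Each group had 2 arrays, which the labels call biological replicates. Since no label says what made the cultures separate, the p-values cover the spread of these arrays alone, which may be technical.

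Osteoblasts arise from mesenchymal progenitors under the transcription factors RUNX2 and SP7 (osterix), with DLX5 acting upstream of both. They lay down a matrix rich in type I collagen and in acidic glycoproteins such as osteopontin (SPP1) and bone sialoprotein (IBSP), and the phosphatase ALPL frees the phosphate for mineral. The same cells control bone resorption: RANK ligand (TNFSF11) drives the formation of osteoclasts, osteoprotegerin (TNFRSF11B) is the soluble decoy receptor that binds it, and DKK1 is a secreted inhibitor of WNT signalling, a pathway that favours bone formation.

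The deposited values are log2 expression values, with array medians between 5.10 and 5.14 and correlations between arrays of a group of 0.986 to 0.992. Differences are log2 differences between group means from limma, given with the standard error (SE) of the moderated fit, and a difference was called at a Benjamini-Hochberg adjusted p under 0.05 over all 33297 probe sets. The level of the siRNA targets was not read. In the platform annotation 0 probe sets carry the symbol H3Y1 or H3Y2, but other names of these genes and the 12083 unnamed probe sets were not searched. In bulk RNA, fewer cells of a type and less RNA per cell cannot be told apart.

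TNFRSF11B was the only member called when group means alone were fitted. It was 9.93-fold higher in the combined knockdown than in luciferase cells and 16.9-fold higher than after H3.Y siRNA, and it passed the test in both comparisons. The call against luciferase was lost without any 1 of the 4 arrays compared, where the difference stayed at log2 2.88 to 3.74. The other 8 members passed in none of the 3 comparisons, although SPP1 passed between the knockdowns when the replicate number was fitted as a block. SPP1 had the next widest range, with its highest values on both H3.Y arrays, and replicate 1 lay above replicate 2 in all 3 groups. Over the 6 arrays the range was 4.64 log2 units for TNFRSF11B and 2.96 for SPP1, against 0.16 to 0.85 for the other 7.

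**Figure D1:**
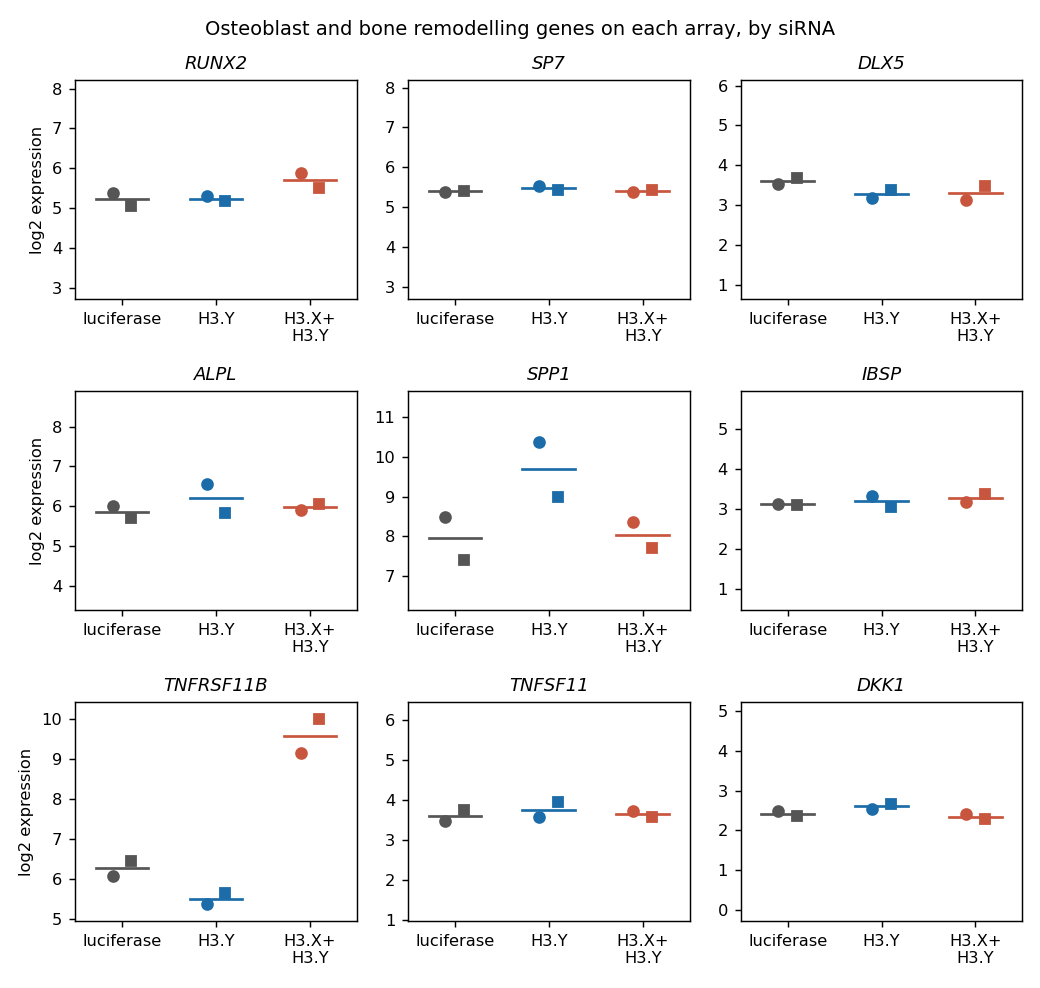
Log2 expression of the 9 genes on each of the 6 arrays, by siRNA group; circles are replicate 1, squares replicate 2, lines the group means, and every panel spans the same number of log2 units. TNFRSF11B stands at 9.14 and 10.00 in the combined knockdown against 5.36 to 6.44 elsewhere, and SPP1 is highest on the H3.Y arrays.

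Against the name of the set, not all of these osteoblast genes were bright in U2OS cells. Levels of different probe sets cannot be set against each other, but the place of a probe set's mean among all probe sets shows how near the floor of the arrays it lies. This mean is over all 6 arrays, knockdowns included. SPP1 lay at the 89.6th percentile, TNFRSF11B at the 75.7th, ALPL at the 62.4th, SP7 at the 54.4th and RUNX2 at the 53.9th. With luciferase siRNA alone TNFRSF11B averaged 6.26, against 7.11 over all arrays, and SPP1 averaged 7.95 against 8.56. The percentiles of TNFRSF11B and SPP1 thus take in knockdown arrays that read higher. TNFSF11 lay at the 29.3rd percentile and DLX5 at the 25.9th. IBSP, at the 23.3rd, and DKK1, at the 13.8th, were the 2 members below the lower quartile of 3.33 log2 units. No detection calls were used, so whether these dim probe sets measured any transcript was not tested, and a change of a dim gene may be understated.

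RUNX2 recognises the core TGTGGT, or ACCACA on the other strand. RefSeq promoter windows, from 250 bases before to 50 after a transcription start on GRCh38.p14, were matched for 6 of the 9 members, which had 10 windows. SP7, DLX5 and TNFRSF11B had none in the table. The core, searched on both strands, was in 2 of the 10 windows, namely a RUNX2 window and the SPP1 window, and in 13.1% of all 35116 windows. Both are printed in the direction of the gene, with the core in capitals. The IBSP window, which lacks these letters, is given beside them because IBSP and SPP1 are neighbours on chromosome 4, with 1 protein-coding gene, MEPE, between them. The windows are chr6:45328080-45328379 for RUNX2, chr4:87975464-87975763 for SPP1 and chr4:87799304-87799603 for IBSP, all on the plus strand.
RUNX2: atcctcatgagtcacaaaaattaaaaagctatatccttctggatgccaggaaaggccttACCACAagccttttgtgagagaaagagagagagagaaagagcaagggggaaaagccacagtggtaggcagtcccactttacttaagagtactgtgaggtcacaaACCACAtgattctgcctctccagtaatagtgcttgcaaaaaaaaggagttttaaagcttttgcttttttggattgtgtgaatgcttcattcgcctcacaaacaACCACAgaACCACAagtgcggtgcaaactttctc
SPP1: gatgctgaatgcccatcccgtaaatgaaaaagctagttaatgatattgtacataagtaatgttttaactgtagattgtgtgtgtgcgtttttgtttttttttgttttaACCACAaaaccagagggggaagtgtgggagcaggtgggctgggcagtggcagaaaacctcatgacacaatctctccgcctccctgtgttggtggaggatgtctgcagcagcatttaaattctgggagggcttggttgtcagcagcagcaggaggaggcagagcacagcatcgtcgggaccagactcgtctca
IBSP: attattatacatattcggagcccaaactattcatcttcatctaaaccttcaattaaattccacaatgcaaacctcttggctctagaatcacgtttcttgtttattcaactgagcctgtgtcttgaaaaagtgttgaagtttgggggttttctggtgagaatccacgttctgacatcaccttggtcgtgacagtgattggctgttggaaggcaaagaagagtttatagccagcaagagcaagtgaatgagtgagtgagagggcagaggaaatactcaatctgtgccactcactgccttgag
The RUNX2 window held the core 4 times, beginning at positions -191, -87, 17 and 25 from the transcription start, and the SPP1 window once, at -142. A match describes the sequence and does not show a bound site.

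Of the 3 transcription factors among the members, RUNX2, the master regulator of the lineage, had the largest estimate. Its arrays read 5.39 and 5.05 with luciferase siRNA, 5.31 and 5.17 with H3.Y siRNA, and 5.89 and 5.51 in the combined knockdown. Both combined knockdown arrays thus lay above the other 4. The difference from luciferase was log2 0.48 ± 0.19 (SE, n = 2 arrays per group; limma adjusted p = 0.30) in the combined knockdown and 0.02 ± 0.19 after H3.Y siRNA (adjusted p = 0.98). Neither passed the test, and the 95% interval in the combined knockdown ran from 0.02 to 0.94. SP7, which acts downstream of RUNX2, had the narrowest range of the set, with luciferase arrays at 5.38 and 5.41, H3.Y arrays at 5.52 and 5.42 and combined knockdown arrays at 5.37 and 5.43. Its 95% interval against luciferase was -0.23 to 0.38 after H3.Y siRNA and -0.30 to 0.31 in the combined knockdown. DLX5 read 3.53 and 3.67 with luciferase siRNA, 3.19 and 3.39 with H3.Y siRNA and 3.12 and 3.49 in the combined knockdown. Both knockdowns lay below luciferase on all arrays, by log2 -0.31 ± 0.17 and -0.29 ± 0.17, and neither difference passed (adjusted p = 0.51 and 0.53, limma). These comparisons share the luciferase arrays.

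Of 26 other factors that act in osteoblasts, 25 were measured, and 0 passed after H3.Y siRNA (limma; 5 at an unadjusted p under 0.05), where MEF2C and YAP1 had the smallest p (log2 0.51 ± 0.15 and -0.56 ± 0.16, adjusted p = 0.20 and 0.21). In the combined knockdown 2 rose over luciferase and 0 fell. They were RUNX1, a second RUNX factor (log2 0.95 ± 0.14, limma adjusted p = 0.031), and FOSL2, an AP-1 subunit (1.41 ± 0.21, adjusted p = 0.033). RUNX1 arrays read 6.88 and 6.99 with luciferase siRNA, 7.23 and 7.16 with H3.Y siRNA and 7.97 and 7.80 in the combined knockdown, with no overlap between any of the groups. Over all probe sets 0.859% were called higher and 0.985% lower in that comparison. Between the knockdowns, RUNX1 (0.69 ± 0.14, adjusted p = 0.044, or 0.052 with a replicate block) and FOSL2 (1.45 ± 0.21) were higher in the combined knockdown, while HEY1, a Notch target that restrains RUNX2 (-1.60 ± 0.21), and ATF4, which drives late osteoblast genes (-0.73 ± 0.13, with -0.27 on a second probe set, not called), were lower. Here 2.74% of all probe sets were called higher and 1.92% lower. After H3.Y siRNA 0.279% of all probe sets were called. At an unadjusted p under 0.05 (limma) there were 5, 8 and 7 of the 25 factors in the 3 comparisons, beside 13.9%, 15.3% and 19.0% of all probe sets. The medians of the list were 0.18, 0.04 and -0.02 in the 3 comparisons, beside 0.02, 0.00 and -0.03 over all probe sets.

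Among the matrix and mineral genes, SPP1, which encodes osteopontin, read 8.48 and 7.42 with luciferase siRNA, 10.38 and 8.99 with H3.Y siRNA, and 8.36 and 7.71 in the combined knockdown. The H3.Y arrays did not overlap with the other 4. After H3.Y siRNA SPP1 differed from luciferase by log2 1.74 ± 0.53, or 3.33-fold, and did not pass (limma adjusted p = 0.23, unadjusted p = 0.016). The combined knockdown gave 0.08 ± 0.53 against luciferase (adjusted p = 0.98) and -1.65 ± 0.53 against H3.Y siRNA (adjusted p = 0.15). With the replicate number as a block the latter passed, at -1.65 ± 0.20 (limma adjusted p = 0.021), and the difference between H3.Y siRNA and luciferase came to 1.74 ± 0.20 (adjusted p = 0.052). Without H3.Y replicate 1 the difference between H3.Y siRNA and luciferase was 1.04, and without replicate 2 it was 2.43. ALPL, the phosphatase of mineralization, showed a like split of the H3.Y arrays, at 6.57 and 5.83, against 6.02 and 5.72 with luciferase siRNA and 5.90 and 6.07 in the combined knockdown. Its differences from luciferase were 0.33 ± 0.26 and 0.12 ± 0.26 (adjusted p = 0.65 and 0.92), and H3.Y and luciferase arrays overlapped. IBSP lay between 3.05 and 3.36 on all 6 arrays, and its 95% intervals against luciferase were -0.29 to 0.45 after H3.Y siRNA and -0.21 to 0.53 in the combined knockdown. The other measured genes of the chromosome 4 cluster of bone glycoproteins lay near the floor as well, with all arrays at 2.25 to 2.75 for MEPE, 2.47 to 2.83 for DMP1 and 2.04 to 2.59 for DSPP. SPP1 was thus the 1 gene of these 5 above the lower quartile of probe sets.

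Of 29 further genes of bone matrix and mineralization, 28 were measured. After H3.Y siRNA 0 passed (limma; 2 at an unadjusted p under 0.05), with POSTN at 0.49 ± 0.16 and COL1A1 at -0.52 ± 0.17 (adjusted p = 0.25 and 0.26). In the combined knockdown 3 rose over luciferase and 0 fell. These were SERPINH1, the collagen chaperone of the endoplasmic reticulum (1.31 ± 0.12, limma adjusted p = 0.015), COL1A1, the main collagen chain of bone (1.58 ± 0.17, 0.019), and the fibroblast protease FAP (1.66 ± 0.19, 0.020). SERPINH1 arrays read 8.66 and 8.65 with luciferase siRNA, 8.46 and 8.45 with H3.Y siRNA and 9.97 on both combined knockdown arrays. Against H3.Y siRNA 4 were higher, namely SERPINH1 (1.51 ± 0.12), COL1A1 (2.10 ± 0.17), FAP (1.54 ± 0.19) and SPARC, which encodes osteonectin (1.31 ± 0.18), and 1 was lower, the phosphate carrier SLC20A2 (-1.20 ± 0.18), named after its value was seen. Over all probe sets 1.84% were called in the combined knockdown against luciferase and 4.67% between the knockdowns. At an unadjusted p under 0.05 (limma) there were 9 of the 28 genes in the former and 8 in the latter. The shares of all probe sets were 15.3% and 19.0%. After H3.Y siRNA the share was 13.9%, and 0.279% of all probe sets were called. Uncalled genes also lay far from 0 against luciferase, among them the mineralization inhibitor MGP (1.18 ± 0.24, limma adjusted p = 0.078), named after its value was seen, and SPARC (1.02 ± 0.18, 0.054). MGP lay near the floor, at the 16.5th percentile of probe sets with arrays at 2.13 to 3.70, as did POSTN, at the 13.7th with arrays at 2.11 to 2.84. With a replicate block 4 genes of the list were called in the combined knockdown against luciferase. The list medians were 0.06, 0.06 and -0.08.

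Among the members, the widest differences were those of TNFRSF11B, the decoy receptor of the RANK ligand axis. TNFRSF11B read 6.08 and 6.44 with luciferase siRNA, 5.36 and 5.63 with H3.Y siRNA, and 9.14 and 10.00 in the combined knockdown. All 3 groups stood apart, with the H3.Y arrays lowest and the combined knockdown arrays highest. The combined knockdown differed from luciferase by log2 3.31 ± 0.30 (95% interval 2.60 to 4.03, limma adjusted p = 0.015) and from H3.Y siRNA by 4.08 ± 0.30 (3.37 to 4.79, adjusted p = 0.0051). H3.Y siRNA differed from luciferase by -0.77 ± 0.30, 1.70-fold lower, which did not pass (adjusted p = 0.32). Leaving out either luciferase array repeats the fit of the knockdowns on only their 4 arrays, so the 12 alternatives are not all distinct. The difference between the knockdowns was called under all of them, at log2 3.65 to 4.51. That from luciferase was lost without any 1 of the 4 arrays compared, at adjusted p of 0.063 to 0.13 and log2 2.88 to 3.74, where 0 of the 33297 probe sets were called.

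TNFSF11, the ligand that osteoprotegerin binds, did not follow. It read 3.46 and 3.74 with luciferase siRNA, 3.58 and 3.95 with H3.Y siRNA and 3.73 and 3.58 in the combined knockdown, and the groups overlapped throughout. The 95% intervals against luciferase were -0.28 to 0.60 and -0.38 to 0.50. TNFRSF11A, which encodes the receptor RANK, lay between 3.70 and 3.95 on all arrays, and TNFSF10, the TRAIL ligand that osteoprotegerin also binds, read 2.92 and 3.86 in the combined knockdown against 2.15 to 2.40 elsewhere (1.04 ± 0.29 against luciferase, adjusted p = 0.16). These 2 genes were picked after their values were seen, for their link to osteoprotegerin.

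Of 24 further genes of RANK signalling and of the signals by which osteoblasts steer osteoclasts, 23 were measured. After H3.Y siRNA 0 passed (5 at an unadjusted p under 0.05), although PTGS2, the inducible prostaglandin synthase, came close at log2 1.29 ± 0.16 (limma adjusted p = 0.051), and the chemokine CCL2 gave -0.95 ± 0.19 (0.11). In the combined knockdown 2 rose and 0 fell, TRAF6, the adaptor that relays signals from RANK (0.80 ± 0.13, adjusted p = 0.045), and the vitamin D receptor VDR (1.02 ± 0.17, 0.048). With a replicate block 0 passed (limma, with 9 at an unadjusted p under 0.05), with adjusted p of 0.054 for TRAF6 and 0.059 for VDR. Of all 33297 probe sets, 5835 had an unadjusted p under 0.05 (limma) in that fit. Between the knockdowns VDR (1.48 ± 0.17), CCL2 (1.43 ± 0.19) and TRAF6 (0.85 ± 0.13) were higher in the combined knockdown and PTGS2 lower (-1.73 ± 0.16). PTGS2 arrays read 4.96 and 5.33 with luciferase siRNA, 6.36 and 6.51 with H3.Y siRNA and 4.68 and 4.72 in the combined knockdown, so that H3.Y arrays were highest and combined knockdown arrays lowest, the reverse of TNFRSF11B. Over all probe sets 0.279% were called after H3.Y siRNA, 1.84% in the combined knockdown against luciferase and 4.67% between the knockdowns. At an unadjusted p under 0.05 (limma) there were 5, 8 and 13 of the 23 genes in the 3 comparisons. The shares of all probe sets at that unadjusted p were 13.9%, 15.3% and 19.0%. The list medians were -0.04, 0.14 and 0.18.

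DKK1, the secreted WNT inhibitor, was the dimmest member, with arrays at 2.49 and 2.36 for luciferase siRNA, 2.55 and 2.66 for H3.Y siRNA and 2.41 and 2.28 for the combined knockdown. Its differences from luciferase were 0.19 ± 0.14 and -0.08 ± 0.14 (limma adjusted p = 0.63 and 0.89). The H3.Y arrays lay just above the others, by less than the test could call. Of 44 other WNT genes 42 were measured. None of the 42 passed against luciferase in either knockdown, with lowest adjusted p of 0.088 and 0.094 (limma) and 3 and 2 genes at an unadjusted p under 0.05. The smallest p after H3.Y siRNA belonged to KREMEN1, a co-receptor of DKK proteins (0.74 ± 0.13), and WNT5B (0.59 ± 0.14), and in the combined knockdown to APC, which helps to degrade beta-catenin (-0.74 ± 0.17), and the ligase RNF43 (0.59 ± 0.20). Between the knockdowns APC alone passed, lower in the combined knockdown by log2 -0.98 ± 0.17 (adjusted p = 0.031), while 2 genes passed with a replicate block. Over all probe sets 0.279%, 1.84% and 4.67% were called in the 3 comparisons. At an unadjusted p under 0.05 (limma) there were 3, 2 and 10 of the 42 genes, beside 13.9%, 15.3% and 19.0% of all probe sets. The medians of the WNT genes were 0.08, 0.06 and 0.02.

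**Figure D2:**
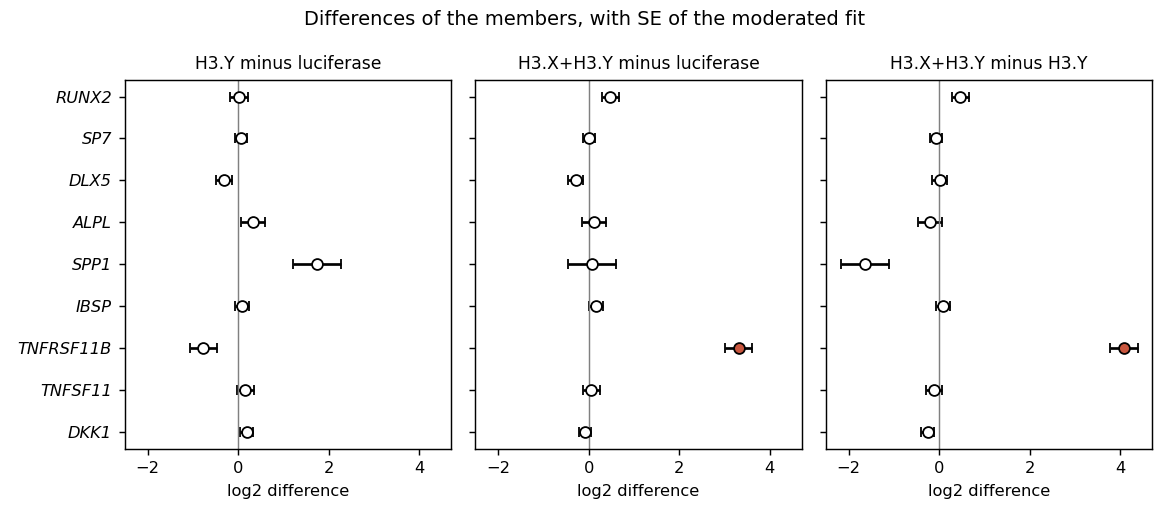
Log2 differences of the 9 members in the 3 comparisons, with bars for the SE of the moderated fit; filled points passed an adjusted p of 0.05. TNFRSF11B is filled at 3.31 and 4.08, and SPP1 at 1.74 and -1.65 has the widest bars.

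The members were chosen with earlier results of these data known, so their counts beside all probe sets describe them and test nothing. Read against all probe sets, the members were called 0 times of 9 after H3.Y siRNA (limma), where 0.279% of all probe sets were called, 0.0841% higher and 0.195% lower. They were called 1 time of 9 in the combined knockdown against 1.84% of probe sets, and 1 time of 9 between the knockdowns against 4.67%, or 2 times with a replicate block. At an unadjusted p under 0.05 there were 2 members in each comparison, beside 13.9%, 15.3% and 19.0% of all probe sets. The arrays of the groups stood apart for 5 of 9 members after H3.Y siRNA, beside 41.7% of all probe sets. In the combined knockdown they stood apart for 4 of 9, beside 47.4%. Between the knockdowns they stood apart for 4 of 9, beside 46.6%, so that separation of 2 arrays from 2 was common on these arrays. Median differences of the members were 0.08, 0.08 and -0.07. In the 4 pathway lists the 7 calls of the combined knockdown against luciferase all failed without any 1 of the 4 arrays compared. Between the knockdowns, where 14 list genes were called, 0 were called without combined knockdown replicate 1 and 1 without replicate 2.

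**Figure D3:**
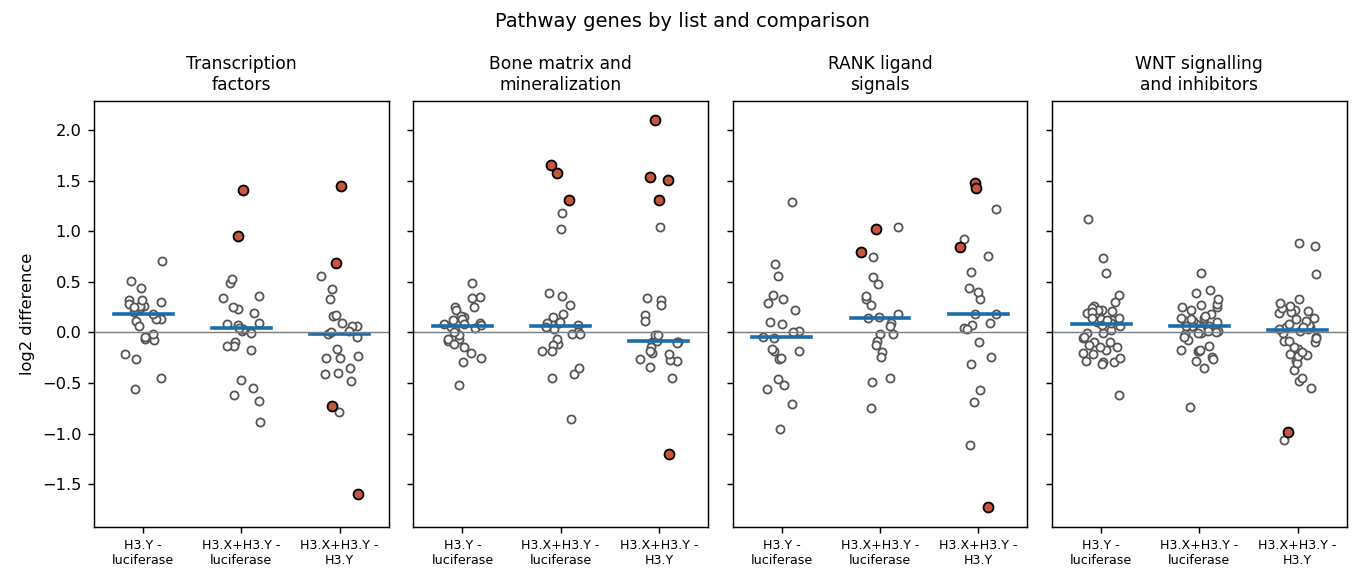
Log2 differences of the genes in the 4 pathway lists, 1 point per gene with random sideways offset, for the 3 comparisons; filled points passed an adjusted p of 0.05 and bars are list medians. The medians lie between -0.08 and 0.18, and the called genes lie away from them.

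Genes with array profiles most like those of the 2 wide-ranging members were found among 17383 named genes by the root mean square difference of mean-centred log2 values over the 6 arrays. For TNFRSF11B they were ACTBL2, an actin-like protein, the matrix proteoglycan lumican (LUM) and the engulfment receptor MEGF10, at 0.46, 0.50 and 0.50 log2 units. Their Pearson correlations with it were 0.967, 0.981 and 0.961. LUM read 2.39 and 1.95, 1.85 and 1.72, and 6.29 and 6.59 in luciferase, H3.Y and combined knockdown cells. For SPP1 they were LRRC15, a leucine-rich repeat protein of the cell surface, NIPAL4 and the ephrin receptor EPHA4, at 0.32, 0.35 and 0.38 log2 units and with correlations of 0.953, 0.936 and 0.940. LRRC15 read 9.04 and 7.34 on the H3.Y arrays, against 6.09 to 6.37 on the other 4. These genes share the arrays and were chosen for likeness, so the values describe them and test nothing.

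**Figure D4:**
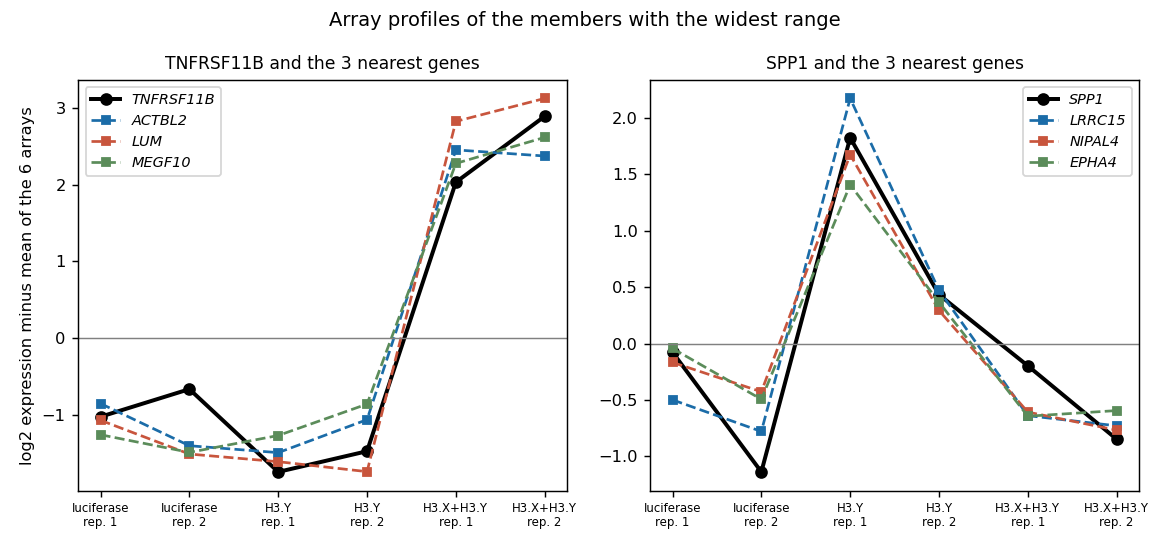
Log2 expression minus the mean of the 6 arrays, for TNFRSF11B and SPP1 (black) and the 3 genes nearest to each, across the 6 arrays in group order. The TNFRSF11B set is high on both combined knockdown arrays, and the SPP1 set is highest on H3.Y replicate 1.

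Osteopontin is also made by osteoclasts and macrophages, so markers of other cell types were read beside SPP1. All arrays were of the U2OS line, and the markers are read here as genes of that line. The mean level of 11 osteoclast markers was 4.38 and 4.40 with luciferase siRNA, 5.11 and 4.85 with H3.Y siRNA and 4.70 and 4.62 in the combined knockdown. After H3.Y siRNA the median difference of the list was 0.10. The arrays stood apart for 3 of 11 markers, all higher, beside 41.7% of all probe sets in either direction. These markers were ATP6V0D2 (log2 2.89), MMP9 (2.56) and CSF1R (0.24), and the other 8 lay between -0.14 and 0.48. Of the 11 markers 0 were called against luciferase in either knockdown (limma, with 2 in each at an unadjusted p under 0.05). Over all probe sets 0.279% and 1.84% were called there. The shares of all probe sets at an unadjusted p under 0.05 (limma) were 13.9%, 15.3% and 19.0% in the 3 comparisons. Between the knockdowns 1 of the 11 markers was called, beside 4.67% of all probe sets. It was the proton pump subunit ATP6V0D2, lower in the combined knockdown by log2 -2.61 ± 0.50 (limma adjusted p = 0.041). It read 7.65 and 6.18 on the H3.Y arrays and 3.86 to 4.75 on the other 4. MMP9, the brightest of the list, read 10.23 and 8.51 on the H3.Y arrays, 6.81 on both luciferase arrays and 7.98 and 8.64 in the combined knockdown. By the mean of all 6 arrays, knockdowns included, the 11 osteoclast markers ranged from the 13.0th percentile of probe sets, for the calcitonin receptor CALCR, to the 86.6th, for MMP9. MMP9 averaged 6.81 with luciferase siRNA, against 8.16 over all arrays. The regulator NFATC1 lay at the 62.9th, SPI1 at the 52.5th, CSF1R at the 51.1st, the protease CTSK at the 29.4th and the fusion protein DCSTAMP at the 17.6th, and 2 of the 11, CALCR and DCSTAMP, were below the lower quartile. The leukocyte antigen PTPRC lay at the 8.39th percentile. CD68, the brightest of 7 blood cell markers, read 9.68 and 9.24 on the H3.Y arrays against 7.68 to 8.66 elsewhere and was lower in the combined knockdown than after H3.Y siRNA by -1.48 ± 0.25 (adjusted p = 0.031). The part of these genes in the SPP1 values was not tested. Of 8 adipocyte markers, of which PPARG was the brightest, LPL alone was called, higher in the combined knockdown than after H3.Y siRNA by log2 0.97 ± 0.19 (adjusted p = 0.047), and of 12 chondrocyte and 8 skeletal muscle markers 0 were called in any comparison (limma; at most 3 and 0 at an unadjusted p under 0.05), their brightest being SOX9 and TNNT1. Of the markers, MMP9, SOX9, PPARG, TNNT1 and CD68 were named as the brightest of their lists, and the others after their values were seen.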

How the data were processed

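Biotin-labelled total RNA was hybridised to 6 arrays. What the authors deposited is 1 log2 expression value per probe set and array, and the submitters' processing notes name the package oligo. No source used here gives its version, the genome build, or how background was corrected and probes were summarised. That the scale is log2 was read from the range of values (0.687 to 14.0). Array medians are nearly equal, so a shift common to all transcripts cannot be seen. The values were used with no further normalization, and 0 value columns were left unused.

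Symbols came from the platform annotation, updated by Entrez ID through RefSeq of GRCh38.p14 for 19429 of 19460 probe sets with 1 symbol; 1754 had several and 12083 were unnamed here. limma 3.58.1 in R 4.3.3 fitted 1 mean per group on all 6 arrays with 3 residual degrees of freedom (3.43 from the prior). All p-values are two-sided and were adjusted within each comparison. The number of arrays limits the precision. The procedure was tested on simulated data.

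The members and gene lists were chosen with earlier results of these data known. Named were all members and, from each pathway list, up to 4 called genes of smallest p per comparison, or 2 uncalled where none passed; 1 probe set per gene was used, the brightest. From each marker list the brightest gene was named by rule, and further markers after their values were seen. For members ranging over 2 log2 units, the 3 nearest array profiles were named, without olfactory receptors, small RNAs, numbered open reading frames and numbered loci. The labels number the replicates without saying what a number shares. Differences between replicates 1 and 2 correlated across probe sets at r = 0.22, 0.28 and 0.122 in the 3 pairs of groups, all over 0.1. The numbers were therefore taken to pair the arrays, from the data alone. The main estimates, SEs and calls nonetheless come from the fit without a block, as planned, and can differ where the pairing holds. Values with a replicate block are given where they change a call. The fit was repeated with a replicate block, on only the 4 arrays of a comparison, after a further quantile normalization or median centring, without probe sets under the lower quartile, with an intensity trend and robust prior, and without each array in turn. For the lists and their genes these alternatives were added after seeing the data.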

Additional observations from a re-analysis of the deposited data

How the results depend on the processing

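With 2 arrays per group, calls depended on the arrays in the fit far more than values did. Leaving out 1 array gave 0 to 629 called probe sets after H3.Y siRNA, 0 to 644 in the combined knockdown and 12 to 1641 between the knockdowns, where the group left with 1 array is assumed to vary like the others. Without 1 array, called members ranged from 0 to 1 in the combined knockdown. Called list genes then ranged, for transcription factors, from 0 to 1 after H3.Y siRNA, 0 to 3 in the combined knockdown and 0 to 4 between the knockdowns; for bone matrix, from 0 to 4 in the combined knockdown and 0 to 5 between the knockdowns; for RANK ligand signals, from 0 to 1 in the combined knockdown and 0 to 6 between the knockdowns; and for WNT genes, from 0 to 1 between the knockdowns.

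Only the 4 arrays compared gave 0 called probe sets after H3.Y siRNA (3709 at an unadjusted p under 0.05) and 448 between the knockdowns. In that fit 1 RANK ligand gene was called in the combined knockdown, and 1 transcription factor, 3 matrix genes and 0 WNT genes (8 at an unadjusted p under 0.05) between the knockdowns. Leaving out dim probe sets gave 192 and 927 calls after H3.Y siRNA and in the combined knockdown, and the intensity trend with robust prior 209 and 924. Each of these 2 settings called 1 RANK ligand gene after H3.Y siRNA, PTGS2 (adjusted p = 0.034 and 0.040), and 2 WNT genes between the knockdowns. IBSP and DKK1 could not be recomputed without dim probe sets.

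A replicate block called 68, 750 and 1778 probe sets in the 3 comparisons, against 93, 614 and 1554 without it. It called 2 members between the knockdowns, adding SPP1, and 0 RANK ligand genes in the combined knockdown (9 at an unadjusted p under 0.05), losing TRAF6 and VDR. It called 2 WNT genes between the knockdowns and lost RUNX1 there. In the combined knockdown against luciferase it called 4 matrix genes, against 3 without it. For the 9 members, and for pathway genes in the comparisons in which they were named by rule, the block changed no other call.

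Of 318 recomputed member differences 295 kept sign and side of the threshold, 4 were lost, 1 was gained and 18 changed sign, all 18 uncalled and on leaving out 1 array. Without 1 array the ranges of those differences after H3.Y siRNA were -0.15 to 0.19 for RUNX2, -0.04 to 0.70 for ALPL, -0.06 to 0.22 for IBSP and -0.02 to 0.35 for TNFSF11. In the combined knockdown they were -0.03 to 0.03 for SP7, -0.03 to 0.27 for ALPL, -0.44 to 0.61 for SPP1 and -0.09 to 0.20 for TNFSF11. Between the knockdowns they were -0.17 to 0.20 for DLX5, -0.59 to 0.16 for ALPL, -0.06 to 0.22 for IBSP and -0.29 to 0.08 for TNFSF11. Of 359 recomputed differences of named list genes, 274 kept their side, 83 lost it, 2 gained it and 0 changed sign. Both totals count 1 fit more than once, since leaving out an array of the group not compared repeats the fit on only the 4 arrays compared. The cause of the changes in sign or call was not tested beyond the smaller number of arrays. Signal near the floor limits what IBSP, DKK1, DLX5 and TNFSF11 can show.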
